A study of Mus musculus with 13 samples.

Results

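Replication-dependent cluster histone genes were taken as every gene whose symbol starts with Hist1h, Hist2h, Hist3h or Hist4h in the tables of the 6 replicated libraries, which gave 63 of 26797 genes. They comprise 6 genes for the linker histone H1, 17 for H2A, 18 for H2B, 10 for H3 and 12 for H4, and all 63 were also found by identifier in a second table of 49671 genes. A further 7 symbols of the same form occur in that second table and are not members, because the rule reads the replicated tables. In GENCODE M21 (GRCm38, the assembly also called mm10), 60 members are protein coding and 3 are pseudogenes. The Hist1 genes lie in a proximal block of 24 members (chr13:21715763-22043676) and a distal block of 30 (chr13:23531050-23934851), with the pseudogene Hist1h2al apart at chr13:51202727-51203065. The 5 Hist2 members lie at chr3:96219865-96263311, the 2 Hist3 members at chr11:58948920-58954512 and Hist4h4 at chr6:136801553-136804415. Of the 63 genes, 58 are annotated as a single exon block.

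Poly(A) RNA was sequenced from mouse embryonic stem (ES) cells grown on gelatin with serum and leukemia inhibitory factor. The replicated groups were untreated wild-type (WT) cells of the line AinV15 and untreated cells of a Dnmt1-null strain (C allele), here Dnmt1-/-, with 3 libraries each. Dnmt1 is the maintenance DNA methyltransferase, and the comparison asks which transcripts differ when genomic methylation is lost. Each genotype is 1 line, so the mutation and other differences between the lines cannot be told apart. Single libraries came from WT cells carrying a Tet-On transgene for dCas9-OGA, a catalytically dead Cas9 fused to an O-GlcNAc-removing enzyme, or for its inactive D242A form, with 4 sgRNAs against IAP retrotransposons and doxycycline at 1 µg/mL for 48 h. The second table also holds 1 WT and 1 Dnmt1-/- column that no label ties to a replicate. No label says whether replicates were separate cultures, so p-values measure the spread between these libraries, which may be technical.

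Cluster histone genes supply the bulk of histone protein during S phase, when newly made DNA is packed into nucleosomes of H2A, H2B, H3 and H4 and bound by H1. Their transcripts are the classic messenger RNAs without a poly(A) tail: the 3′ end is cut just after a short stem-loop that is bound by the stem-loop binding protein SLBP. Some members also give a longer, polyadenylated transcript, which is best known from cells that leave the cycle. Poly(A) selection therefore captures only part of the RNA of these genes, and in bulk samples fewer cells in S phase and less RNA per cell cannot be told apart.

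The stem-loop was searched on the coding strand in the 150 bases after the stop codon, as the letters TTTTNAG directly after a C, with GG ending 2 bases before that C and CC starting 2 bases after the last G. It was present in 53 of the 60 members with an annotated stop codon (88.3%), and in 2 of 21685 protein-coding genes without a symbol of this form (0.00922%), H2bfm and the histone variant gene H2afx. It began between 22 and 56 bases after the stop codon. The forms below are shown because they set H4 apart from the other classes: stem and loop are in capitals, flanks in lower case, read 5′ to 3′ on the coding strand from the GRCm38 reference. The form of Hist1h2bc was the commonest, with 32 members, none of them H4. The form of Hist1h3c was held by 9 members of H1, H2A, H2B and H3. The forms of Hist1h4n and Hist1h4i were held by 8 and 2 genes, all of them H4, and Hist1h4j and Hist2h2ac (not shown) each held a form of their own.
Hist1h2bc (chr13:23684647-23684662): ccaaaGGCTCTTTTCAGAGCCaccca
Hist1h3c (chr13:23745047-23745062): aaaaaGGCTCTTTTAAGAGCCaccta
Hist1h4n (chr13:21831798-21831813): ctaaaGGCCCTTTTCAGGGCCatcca
Hist1h4i (chr13:22040966-22040981): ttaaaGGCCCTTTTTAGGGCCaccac
Hist1h4j (chr13:21735437-21735452): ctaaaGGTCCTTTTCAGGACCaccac

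Coding genes of the family were often near-identical to one another, which limits how reads can be assigned. Of all overlapping 50-base windows of the exons, at least 80% occurred once in the genome for 14 members, and none did for 4 members. All 17 H2A members overlap an annotated gene on the other strand, and no other member does. The labels name a kit without strand information and the study's methods a stranded one, so reads from the 2 strands at H2A genes cannot be separated with certainty here. Hist1h2be and Hist1h1e overlap each other on the same strand.

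Reads on genes ranged from 26846275 to 37112247 in the 6 replicated libraries and from 18693531 to 25097983 in the 4 single ones. The normalised signal of Dnmt1 was 308 to 352 in WT and 73.6 to 77.6 in Dnmt1-/- cells, with no overlap. In the single libraries Dnmt1 had 61.9 counts per 1000000 (CPM) in the Dnmt1-/- column and between 376 and 549 in the other 3. The ES cell markers Pou5f1, Nanog and Zfp42 had mean signals of at least 272 in both genotypes, and the ES cell list of 7 tested genes had 1 higher and 3 lower. Fibroblast markers summed to between 1065 and 1532 in WT and to between 259 and 288 in Dnmt1-/- libraries, with 7 of 7 lower by limma. Markers of 2-cell-like cells summed to between 691 and 709 in WT and to between 259 and 305 in Dnmt1-/- libraries, with 9 of 10 lower. Trophoblast markers were higher in Dnmt1-/- cells for 5 of 5 tested, and primitive endoderm markers for 5 of 6. Over all genes tested 35.8% were called higher and 35.4% lower. These lists moved with the genotype, and their part in the histone values was not tested.

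Cluster histone transcripts were a small part of the poly(A) RNA and their summed level was lower in Dnmt1-/- cells. The members took 239, 238 and 208 of every 1000000 reads on genes in WT and 149, 148 and 133 in Dnmt1-/- libraries. The groups did not overlap, with means of 228 ± 17.4 and 143 ± 9.07 (SD, n = 3). Hist1h1c alone held 18.4% of all member reads over the 6 libraries, Hist1h1c with Hist1h2bc 35.0%, and the 10 most abundant members 64.6%. The abundance is therefore carried by few genes, with a median member at 39 reads per library.

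In the fit across all genes (limma on log2 of the signal + 0.5), 54 members passed the filter on low values. None was called higher in Dnmt1-/- cells and 21 were called lower at an adjusted p under 0.05. Over all 17297 genes tested, 35.8% were called higher and 35.4% lower, so the 21 of 54 lower members stand near the background share and the 0 of 54 higher members below it. At an unadjusted p under 0.05 limma also gave 0 higher members, as did edgeR and DESeq2 on the reads recovered from the signal. The estimate was below 0 for 47 of the 54 members. The median log2 fold change was -0.26 over the members and 0.01 over all genes. The members' median was -0.42 with edgeR or DESeq2 and -0.074 with a pseudocount of 5. At least a 2-fold fall was called for 2 members, Hist1h2bc and Hist2h3c2, against 9.41% of all genes. The + 0.5 shrinks low genes: by the ratio of mean signals 7 called members were at least 2-fold lower, against 14.3% of all genes, with Hist1h2bg, Hist1h3b, Hist1h4m, Hist1h4n and Hist2h2be added. Of the 21 lower members 17 were called in every alternative fit. Most members are thinly covered, so one that was not called may still differ.

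**Figure D1:**
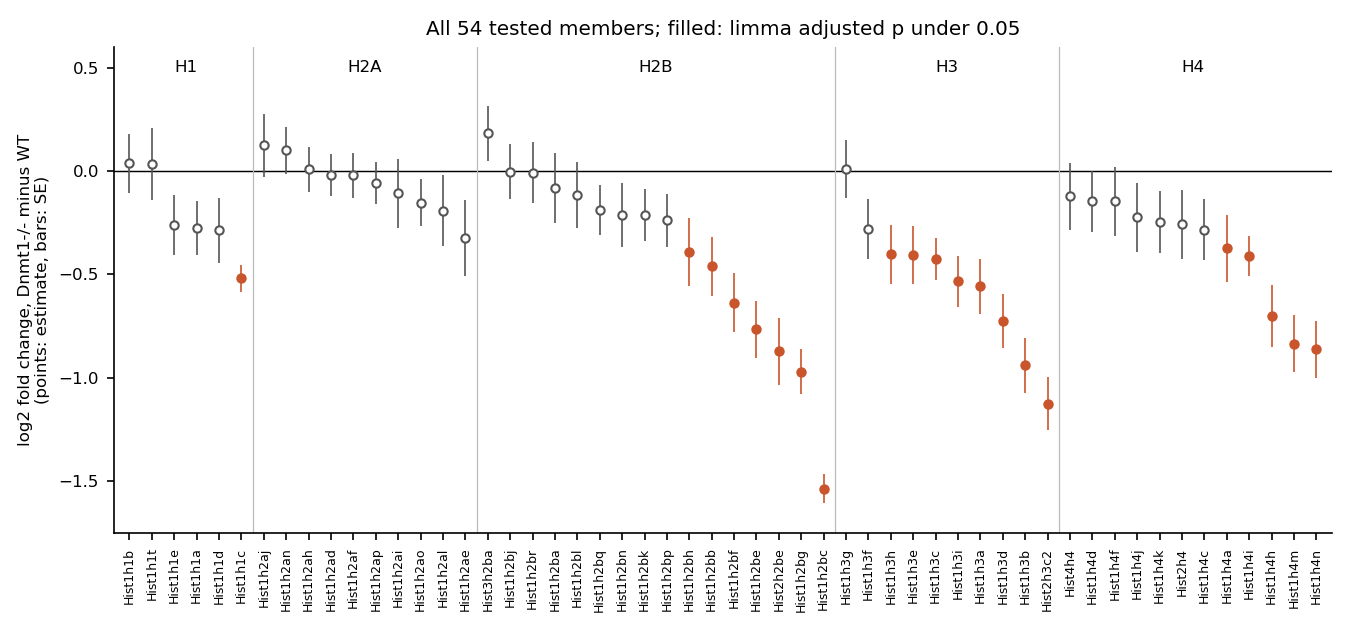
Log2 fold change of each of the 54 tested members, Dnmt1-/- minus WT, grouped by histone class (y axis: log2 scale, points: limma estimate, bars: SE). The 21 filled points passed an adjusted p of 0.05 and all lie below 0, and none of the 10 H2A genes is among them.

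The linker histone H1 binds the DNA between nucleosomes, and a fall was called for 1 of its 6 genes, below the 35.4% of all genes. Hist1h1c, the H1.2 gene and the member with the most reads, had signals of 42.4, 41.2 and 36.1 in WT and 28.8, 27.2 and 27.01 in Dnmt1-/- libraries. Every Dnmt1-/- value lay below every WT value, and the log2 fold change was -0.52 ± 0.06 (SE, limma adjusted p = 1.5e-07). Hist1h1a was measured at 3.44, 3.01 and 2.44 in WT and at 2.12, 2.30 and 2.62 in Dnmt1-/- libraries. Its groups overlapped, and the difference of -0.28 ± 0.13 missed the threshold (adjusted p = 0.064), but passed with edgeR (adjusted p = 0.048) or a pseudocount of 5 (adjusted p = 0.043). Hist1h1b gave 0.82, 0.96 and 0.72 in WT and 0.77, 0.99 and 0.85 in Dnmt1-/- libraries, with no separation of the groups. Hist1h1d and Hist1h1e had log2 fold changes of -0.29 ± 0.16 and -0.26 ± 0.15 and were not called. Without WT replicate 3, limma called Hist1h1a, Hist1h1d and Hist1h1e lower too (adjusted p = 0.013, 0.017 and 0.029). Without Dnmt1-/- replicate 3 it called Hist1h1a (adjusted p = 0.043). Summed over the class, the signal was 46.6 ± 4.52 in WT and 33.1 ± 0.66 in Dnmt1-/- cells (SD, n = 3), and most of it is Hist1h1c.

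H2A pairs with H2B in the nucleosome. No H2A gene was called by limma at an adjusted or an unadjusted p under 0.05, nor by edgeR or DESeq2. With no filter on low values limma called Hist1h2ag lower (adjusted p = 0.0048), at 5, 11 and 6 reads in WT and 2, 1 and 3 in Dnmt1-/- libraries. Of 17 members 10 were tested, with a median log2 fold change of -0.04 and a range from -0.32 to 0.13. Hist1h2ad had signals of 9.66, 9.04 and 8.48 in WT and 9.51, 10.1 and 7.37 in Dnmt1-/- libraries. Hist1h2ap gave 8.22, 7.58 and 6.57 in WT and 7.76, 7.07 and 6.56 in Dnmt1-/- libraries. For Hist1h2ao the values were 6.88, 7.22 and 6.03 in WT and 7.31, 5.26 and 5.53 in Dnmt1-/- libraries. Hist1h2ap and Hist1h2ao have no unique 50-base window and Hist1h2ad 32.9%, so their values are uncertain as single genes. In all 3 genes the groups overlapped, with log2 fold changes of -0.02 ± 0.10, -0.06 ± 0.10 and -0.15 ± 0.11. Without Dnmt1-/- replicate 1 limma called 2 H2A genes lower, Hist1h2ae (adjusted p = 0.019) and Hist1h2ao (adjusted p = 0.029), and without WT replicate 2 Hist1h2ae (adjusted p = 0.045). The summed H2A signal was 40.6 ± 2.95 in WT and 39.2 ± 4.14 in Dnmt1-/- cells (SD, n = 3). Most of it came from the 6 H2A genes with a mean of at least 50 reads. These had 0% to 32.9% unique windows and at most 3 counts in every single library. Whether H2A differed from the other classes in its response was not tested, and the H2A genes are also the members with annotated antisense partners.

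H2B had the largest fall of any class in summed signal, from 78.2 ± 6.71 in WT to 38.7 ± 1.80 in Dnmt1-/- cells (SD, n = 3), with 7 of 16 tested genes lower beside 35.4% of all genes, a share near the background. Hist1h2bc carried most of it, at 46.7, 48.1 and 39.7 in WT and 15.5, 15.3 and 14.4 in Dnmt1-/- libraries. The lowest WT library was above the highest Dnmt1-/- library by a wide margin, and the log2 fold change was -1.54 ± 0.07 (adjusted p = 2.1e-15). Hist1h2bg had signals of 8.35, 8.21 and 6.65 in WT and 3.73, 3.68 and 3.65 in Dnmt1-/- libraries. These groups did not overlap either, at -0.97 ± 0.11 (adjusted p = 2.2e-08). Hist2h2be, the H2B gene of the chromosome 3 cluster, was low throughout, at 1.08, 1.35 and 1.40 in WT and 0.52, 0.26 and 0.66 in Dnmt1-/- libraries. Its log2 fold change was -0.87 ± 0.16 (adjusted p = 3.7e-05), without overlap of the groups.

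The other H2B genes called lower were Hist1h2be, Hist1h2bf, Hist1h2bb and Hist1h2bh, between -0.77 and -0.39. The call of Hist1h2bh was lost without WT replicate 1 (adjusted p = 0.13) or Dnmt1-/- replicate 3 (adjusted p = 0.33), and on all 6 libraries with edgeR (adjusted p = 0.068), DESeq2 (adjusted p = 0.15) or no filter (adjusted p = 0.095). The third most abundant H2B gene per kb of exon, Hist1h2bk, gave 2.23, 2.36 and 2.37 in WT and 2.16, 1.81 and 1.84 in Dnmt1-/- libraries. Its estimate of -0.21 ± 0.13 was not called (adjusted p = 0.13). Hist1h2bq and Hist1h2br, none of whose 50-base windows is unique, had estimates of -0.19 ± 0.12 and -0.01 ± 0.15. Hist1h2bm was under the filter, with 7, 7 and 4 reads in WT and 11, 12 and 9 in Dnmt1-/- libraries. Limma called it higher when no filter was used or when WT replicate 1 was left out (log2 fold change 0.35 and 0.39, adjusted p = 0.0065 and 0.048).

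**Figure D2:**
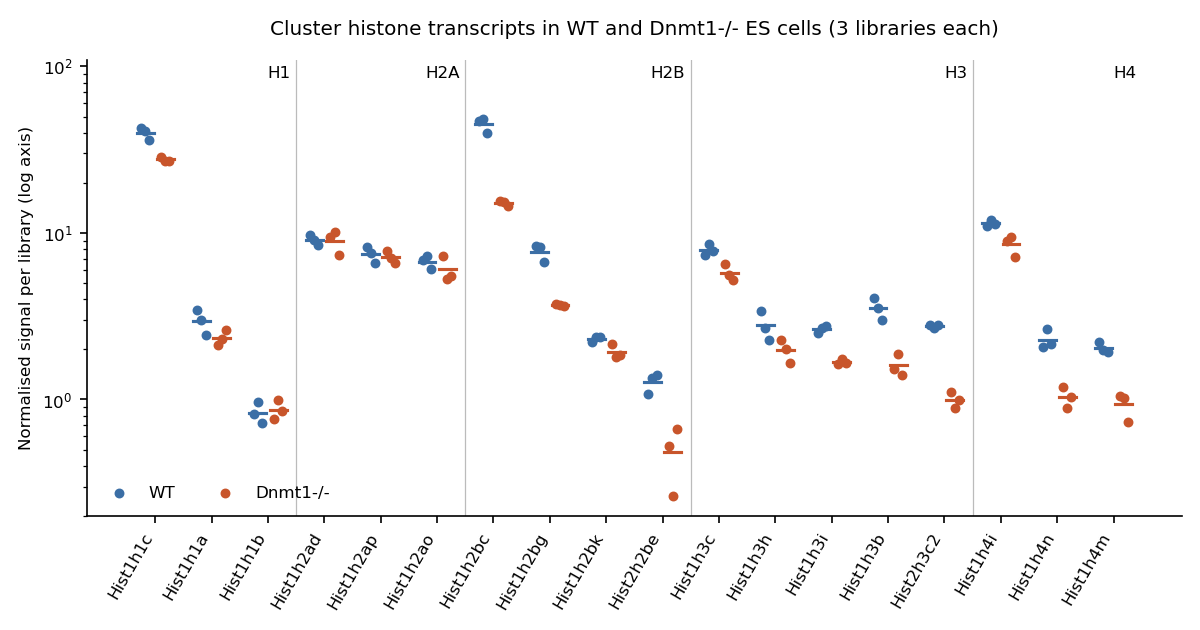
Normalised signal in each library (log axis) of the 3 members of each class with the highest signal per kb and of the 5 members with the largest called falls (blue: WT, orange: Dnmt1-/-, lines: means of 3). Hist1h2bc sat between 39.7 and 48.1 in WT and between 14.4 and 15.5 in Dnmt1-/- libraries, while the 3 H2A genes overlapped between genotypes.

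H3, the histone whose tail carries many of the known regulatory marks, had 8 of 10 genes called lower by limma, against 35.4% of all genes. The count was 7 of 10 with DESeq2 and 6 of 10 without WT replicate 1 or Dnmt1-/- replicate 3. Hist2h3c2 of the chromosome 3 cluster was measured at 2.82, 2.68 and 2.80 in WT and at 1.11, 0.89 and 0.99 in Dnmt1-/- libraries. The groups were far apart for their spread, with a log2 fold change of -1.13 ± 0.13 (adjusted p = 3.7e-08). Hist1h3b gave 4.06, 3.53 and 3.02 in WT and 1.53, 1.87 and 1.40 in Dnmt1-/- libraries, a change of -0.94 ± 0.13 (adjusted p = 1.1e-06). Hist1h3c, the most abundant H3 gene per kb, fell less, from 7.37, 8.57 and 7.76 to 6.51, 5.56 and 5.23. Its groups did not overlap, at -0.43 ± 0.10 (adjusted p = 0.00078).

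Hist1h3i changed by -0.53 ± 0.12 without overlap of the groups. Of the 50-base windows of Hist1h3i and Hist1h3h, 12.4% and 6.08% are unique, so their values are uncertain as single genes. Hist1h3h changed by -0.40 ± 0.14 (adjusted p = 0.014), with 1 Dnmt1-/- library level with the lowest WT library at 2.26, and this call was lost when WT replicate 1 (adjusted p = 0.13) or Dnmt1-/- replicate 3 (adjusted p = 0.079) was left out, or with no filter (adjusted p = 0.063). Hist1h3a, Hist1h3d and Hist1h3e were the other H3 genes called lower, between -0.73 and -0.41, and Hist1h3e lost its call without WT replicate 1 (adjusted p = 0.096) or Dnmt1-/- replicate 3 (adjusted p = 0.059), or with DESeq2 (adjusted p = 0.05003). The H3 genes not called were Hist1h3f at -0.28 ± 0.15 and Hist1h3g at 0.01 ± 0.14. Without Dnmt1-/- replicate 1 limma called Hist1h3f lower too (adjusted p = 0.038). Summed H3 signal was 28.9 ± 1.98 in WT and 18.4 ± 1.18 in Dnmt1-/- cells (SD, n = 3).

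H4 genes encode one and the same core histone protein from many loci, and 5 of 12 were called lower, near the 35.4% of all genes. Hist1h4i, the most abundant, had signals of 11.04, 12.02 and 11.2 in WT and 8.98, 9.40 and 7.19 in Dnmt1-/- libraries, without overlap. The log2 fold change was -0.41 ± 0.10 (adjusted p = 0.00055). Hist1h4n gave 2.06, 2.65 and 2.16 in WT and 1.18, 0.89 and 1.03 in Dnmt1-/- libraries, a change of -0.86 ± 0.14 (adjusted p = 5.8e-06). Hist1h4m gave 2.23, 1.97 and 1.94 in WT and 1.04, 1.02 and 0.74 in Dnmt1-/- libraries, a change of -0.83 ± 0.14 (adjusted p = 9.4e-06). Both show separate groups, but only 7.09% and 10.2% of their 50-base windows are unique, so their values are uncertain as single genes. Hist1h4h and Hist1h4a were the remaining calls, at -0.70 ± 0.15 and -0.37 ± 0.16. The groups overlapped for Hist1h4a, which lost its call without either of WT replicates 2 and 3 or Dnmt1-/- replicates 2 and 3 (adjusted p from 0.071 to 0.21). Its call was also lost with the replicate block (adjusted p = 0.062), a pseudocount of 0.1 (adjusted p = 0.054), no filter (adjusted p = 0.12) or DESeq2 (adjusted p = 0.12). Without Dnmt1-/- replicate 1 limma also called Hist1h4k and Hist2h4 lower (adjusted p = 0.036 for both), and without Dnmt1-/- replicate 3 Hist1h4j (adjusted p = 0.046). All 12 H4 estimates were below 0, and the summed signal was 25.6 ± 1.34 in WT and 17.7 ± 1.82 in Dnmt1-/- cells (SD, n = 3).

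**Figure D3:**
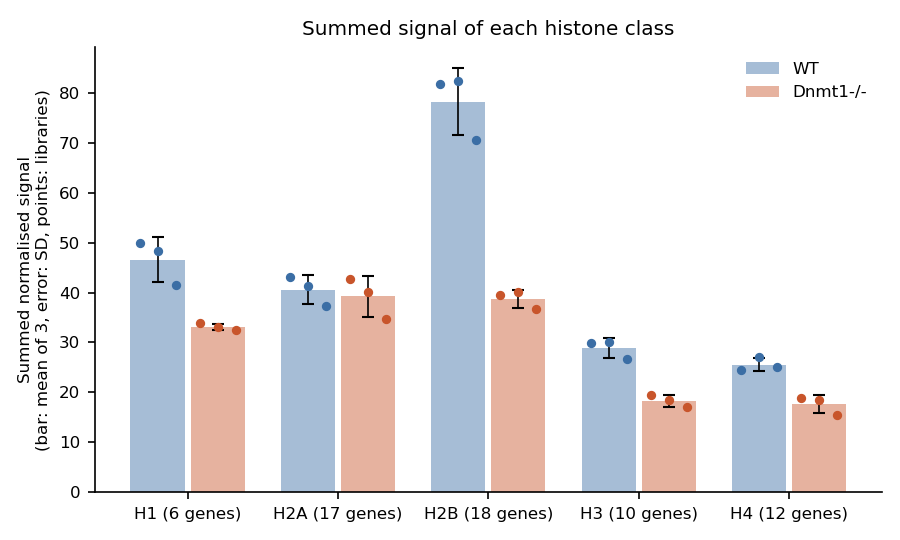
Normalised signal summed over the members of each class (bars: mean of 3 libraries, error bars: SD, points: libraries). H2B fell from 78.2 to 38.7, whereas H2A was 40.6 in WT and 39.2 in Dnmt1-/- cells. Most H2A signal came from 6 genes with at most 3 counts in every single library.

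Germ cell variants, which package chromatin in spermatocytes or in sperm and egg, were close to the floor in both genotypes. The testis H1 gene Hist1h1t had signals of 0.23, 0.60 and 0.32 in WT and 0.38, 0.56 and 0.26 in Dnmt1-/- libraries. Hist1h2ba, a testis H2B gene, gave 0.46, 0.29 and 0.40 in WT and 0.21, 0.56 and 0.26 in Dnmt1-/- libraries. Neither separated the genotypes, with log2 fold changes of 0.04 ± 0.17 and -0.08 ± 0.17. The testis H2A gene Hist1h2aa had 1 read in 1 library of each genotype and 0 in the others. Where a library had 0 reads, counting alone allows up to 3. The spermatogenic marker list was tested for 1 gene, Stra8, which was not called, and 5 of its 6 measured genes, Prm1 among them, stayed under a signal of 1 in every library. Hist3h2ba had signals of 1.90, 1.43 and 1.76 in WT and 1.88, 1.97 and 2.1 in Dnmt1-/- libraries. Its estimate of 0.18 ± 0.13 was the highest of the 54 tested members and was not called, while the 1345 other genes tested on chromosome 11 had a median of 0.35. Hist4h4 was low, at 0.29, 0.49 and 0.57 in WT and 0.35, 0.26 and 0.52 in Dnmt1-/- libraries, and the processed pseudogene Hist3h2bb-ps had at most 1 read in any of the 6 libraries.

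The 2 Hist1 blocks and the annotated 3′ ends were set beside these changes as descriptions, to be read against the 35.4% of all genes called lower. In the distal block 14 of 27 tested members were lower with a median log2 fold change of -0.37, and in the proximal block 5 of 21 with a median of -0.19. The few other tested genes inside the blocks went both ways, 1 higher and 1 lower of 2 in the distal block (Hfe, Trim38) and 1 higher and 1 lower of 3 in the proximal block (Prss16, Zfp184, Gm11292). The 625 other genes tested on chromosome 13 had a median of -0.05. The difference between the blocks was not tested. In 21 members the annotated exon runs at least 100 bases past the stem-loop, as in Hist1h1c (840 bases), Hist1h2bc (733 bases) and Hist1h4i (330 bases). These 21 held 55.2% of member reads. Their summed signal was 129 ± 11.9 in WT and 72.1 ± 3.15 in Dnmt1-/- cells, with 9 of 20 tested lower. Hist1h1c and Hist1h2bc supplied 39.89 and 44.85 of this WT sum and 27.65 and 15.09 of the Dnmt1-/- sum. For the 32 members whose annotated exon ends within 100 bases of the stem-loop, the sums were 73.5 ± 3.84 and 59.7 ± 5.54 (SD, n = 3), with 10 of 25 lower. These members include Hist1h2ad, Hist1h2ap and Hist1h2ao, the H2A genes with the most reads. The difference between the long and short exon groups was not tested. Of the 14 members with at least 80% unique windows, 12 were tested and 3 were lower, Hist1h1c, Hist1h2be and Hist2h2be, with a median of -0.27.

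Many H2A and H2B genes stand head to head with starts close together, and 13 such pairs with 175 to 305 bases between starts were found. Per kb of exon, the H2B partner had the higher mean signal in 7 pairs and the H2A partner in 6. In the single libraries these 6 H2A genes had at most 4 counts over all 4 libraries, and mean CPM per kb was higher for H2B in 9 pairs, for H2A in 2, and 0 for both in 2, so the order depends on the source. The most unequal pair was Hist1h2ac and Hist1h2bc, with a mean signal per kb of 0.03 and 25.9. In reads, Hist1h2ac had 2, 6 and 1 in WT and 0, 3 and 2 in Dnmt1-/- libraries, while Hist1h2bc had 1427, 1853 and 1105 in WT and 446, 465 and 392 in Dnmt1-/- libraries. The reverse held for Hist1h2ap and Hist1h2br, at 15.1 and 1.09 per kb. The 250 bases between the starts of Hist1h2ac and Hist1h2bc (chr13:23683949-23684198, GRCm38, plus strand, Hist1h2bc to the right) are printed because this pair holds the member with the largest fall. CCAAT on either strand is in capitals, 2 matches on the plus and 1 on the minus strand.
Hist1h2ac-Hist1h2bc: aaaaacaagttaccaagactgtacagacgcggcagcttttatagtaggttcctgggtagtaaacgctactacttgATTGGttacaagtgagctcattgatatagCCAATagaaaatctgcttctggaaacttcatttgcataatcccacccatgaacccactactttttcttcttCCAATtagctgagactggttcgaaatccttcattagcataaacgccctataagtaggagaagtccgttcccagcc

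CCAAT, the letters bound by the factor NF-Y, was then counted on both strands in RefSeq promoter windows of GRCm38 that start 250 bases before and end 50 bases after a gene's start. Such a window was found for 54 members. CCAAT occurred in 46 of them (85.2%) and in 37.8% of 26971 windows of other genes, and at least 2 matches in 70.4% and 12.04%. By class it was present in 6 of 6 H1, 14 of 14 H2A, 15 of 15 H2B and 8 of 8 H3 windows, but in 3 of 11 H4 windows. TATAAA on either strand was present in 62.96% of member windows and 14.1% of the others. All H2A and H2B windows found thus held these letters, whether the gene was called lower, as Hist1h2bg, or not, as Hist1h2ad. Windows of head-to-head pairs overlap and are not independent, and a match is not a bound site.

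Factors that make histone messages were measured from a list of transcription and 3′ processing genes, and 14 of 19 were higher in Dnmt1-/- cells and none lower, against 35.8% and 35.4% of all genes. Slbp, which encodes the stem-loop binding protein, was at 78.8 ± 4.00 in WT and at 118 ± 2.89 in Dnmt1-/- cells (SD, n = 3) and rose by 0.57 ± 0.05 on the log2 scale (adjusted p = 4.2e-10). Npat, the coactivator of histone gene transcription at histone locus bodies, rose by 0.58 ± 0.06. Casp8ap2 (0.31), Hinfp (0.31), Lsm11 (0.51) and Zfp473 (0.49) rose too, and Lsm10, a subunit of the U7 particle, was measured at 0.05 ± 0.08 and not called. The largest rise in the list was that of Srrt, at 0.93 ± 0.05. Histone message decay genes were higher for 6 of 10 and lower for none, with Eri1, the exonuclease that trims the stem-loop end, at 0.45 ± 0.05 and Zcchc11 at 0.43 ± 0.06.

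Replication-independent histone genes, whose expression is not limited to S phase, moved in both directions, with 3 of 11 higher and 6 lower, against 35.8% and 35.4% of all genes, so the share that rose stands near the background. H2afx is on this list although it also holds the stem-loop. H1f0, the linker histone of resting cells, was at 166 ± 5.95 in WT and at 73.5 ± 2.49 in Dnmt1-/- cells, and its log2 fold change was -1.17 ± 0.05. Of the 2 genes for the H3.3 protein, H3f3b rose by 0.64 ± 0.06 and H3f3a fell by 0.49. Cenpa, the centromeric H3, rose by 0.71 ± 0.05 and H2afx, the variant of the DNA damage response, by 0.30 ± 0.05. H2afz was measured at 0.04 ± 0.06 and was not called, except without Dnmt1-/- replicate 3 (0.13, adjusted p = 0.042). Histone chaperones, which carry histones to chromatin, were higher for 13 of 17 tested and lower for none, again beside 35.8% and 35.4% of all genes, with Nasp at 0.34 ± 0.05, Asf1b at 0.61 ± 0.06 and Hira at 0.64 ± 0.07.

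Cell cycle lists were read beside these values because cluster histone messages accumulate in S phase. S phase genes had 7 of 26 higher and 10 lower, near the 35.8% and 35.4% of all genes. Ccne1 (1.39 ± 0.05) and Cdc6 (0.90 ± 0.05) rose most, and Tyms (-0.51 ± 0.05) and Rfc4 (-0.43 ± 0.06) fell most. G2 and M phase genes were higher for 19 of 20, against 35.8% of all genes, led by Aurkb (1.08 ± 0.06) and Kif20a (0.96 ± 0.05), and only Kif11 was lower. RNAs listed as lacking a poly(A) tail, of which Neat1 also has a polyadenylated form, were tested for 6 genes, of which 5 were lower and none higher. Rn7sk changed by -0.64 ± 0.09 and Neat1 by -0.43 ± 0.12. The summed signal of that list was 321 to 333 in WT and 216 to 332 in Dnmt1-/- libraries, mostly Malat1, and 42.7 to 47.9 and 26.7 to 39.7 without it. The lists' part in the histone values was not tested.

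The count table of single libraries allows no test, and its values describe 1 column per condition. No label says which library its WT and Dnmt1-/- columns come from, and they are called single libraries here. Of every 1000000 reads on genes the members held 64.4 in WT and 74.0 in Dnmt1-/- cells, 40.3 with the active dCas9-OGA and 94.6 with its D242A form. As shares of all reads on genes these were 0.00644% (95% Wilson interval 0.00614 to 0.00677), 0.0074% (0.00702 to 0.0078), 0.00403% (0.00379 to 0.00429) and 0.00946% (0.00908 to 0.00985). The intervals do not overlap but cover counting error only. Library preparation, culture and condition cannot be told apart.

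Between dCas9-OGA and its inactive form, the members summed to 1006 and 2348 counts, a log2 ratio of -1.22 (95% counting interval -1.33 to -1.11). Of the 9 members with at least 100 counts over both libraries, 5 were at least 2-fold lower in dCas9-OGA cells and none higher, where 7.22% of all 12722 such genes were lower and 4.88% higher. Of these 5, 4 were H1 genes. For Hist1h1a the active enzyme gave 62 counts and the inactive form 199, for Hist1h1b 58 and 169, for Hist1h1d 91 and 259, and for Hist1h1c 135 and 295. Without a pseudocount their log2 ratios of CPM lay between -1.68 and -1.13. The count follows the pseudocount: it was 8 of 9 with none, an alternative chosen after the data were seen, and 0 with one of 5 in place of 0.5. The shares of all genes hold for 0.5 only. Hist3h2ba, on chromosome 11, had 14 and 87 counts, a log2 ratio of -2.63 (counting interval -3.45 to -1.82). Hist1h2bc had 91 and 107 counts, a log2 ratio of -0.23 with an interval of -0.63 to 0.17, so no difference was detectable at this depth. These 2 libraries also differed in the RNAs without a poly(A) tail, which summed to 136 and 247 CPM, mostly Malat1, and to 24.4 and 19.5 CPM without it. Neat1 made up most of the rest, at 22.3 and 13.4 CPM, and without both the sums were 2.1 and 6.08 CPM. In the same comparison S phase genes had a median log2 ratio of 0.18 with 21 of 28 above 0, where all genes had a median of 0.03. Other lists moved too. Medians were 0.21 for G2 and M phase genes (15 of 20 above 0) and 0.16 for 3′ processing genes (14 of 19). ES cell markers had 0.59 (6 of 8) and primitive endoderm markers 0.77 (3 of 4). Trophoblast markers had -0.38 (1 of 4) and fibroblast markers -0.03 (2 of 5). The part of any of these lists in the histone values was not tested.

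**Figure D4:**
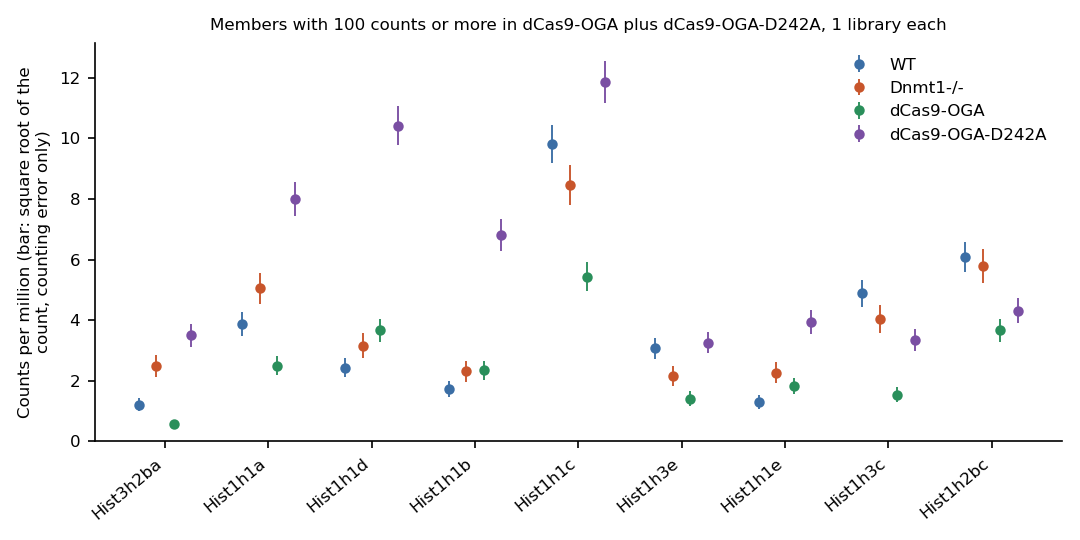
CPM in the 4 single libraries for the 9 members with at least 100 counts over dCas9-OGA and dCas9-OGA-D242A (bars: square root of the count, counting error only). The D242A library has the highest value for the 5 H1 genes, Hist1h3e and Hist3h2ba, and the WT library for Hist1h3c and Hist1h2bc.

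The single WT library stood apart from the other 3 in transcripts of several lists, in both directions. Mki67 had 15.0 CPM there and 165 to 387 in the others, and 9 of 20 G2 and M phase genes were at least 2-fold higher in the Dnmt1-/- and in the inactive-enzyme library and 10 in the active one, while Cdc20 was highest in WT, at 600.3 CPM against 384 to 447. Outside the cell cycle, Npat was at 19.5 CPM in WT and 71.0 to 82.2 in the others, and 2-cell-like markers summed to 50.2 CPM in WT and at most 2.29 in the others. The part of this in the 3 comparisons with that library was not tested. Against it, 3 H1 genes were at least 2-fold higher with the inactive enzyme and none with the active one. In dCas9-OGA-D242A cells 4 of 13 members were at least 2-fold higher than in WT, Hist1h1b, Hist1h1d, Hist1h1e and Hist3h2ba, and none lower, with 12.5% of all genes higher and 8.28% lower. In dCas9-OGA cells 2 of 8 members were at least 2-fold lower than in WT, Hist1h3c and Hist1h4i, and none higher, with 9.78% of all genes lower and 14% higher. With a pseudocount of 5 these counts became 1 of 13 and 0 of 8. Hist1h3c had 121 counts in WT and 38 in dCas9-OGA cells, and Hist1h4i 82 and 20. Hist2h2be, named here after its values were seen, had 18 counts in WT, 4 in Dnmt1-/-, 49 with the active and 20 with the inactive enzyme. Both comparisons and the next use the same WT library.

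In the single Dnmt1-/- library no member of 8 reached 2-fold in either direction against the single WT library, where 10.5% of all genes were higher and 6.89% lower. The members summed to 1384 and 1617 counts, a log2 ratio of 0.16 (counting interval 0.05 to 0.26) after scaling to depth. The sum thus lay on the other side of 0 from the replicated comparison, at -0.58 on the log2 scale. Hist1h2bc had 110 counts in Dnmt1-/- and 151 in WT, a log2 ratio of -0.07 with a counting interval of -0.43 to 0.28, which does not include the replicated estimate of -1.54. Hist1h1c had 161 and 243 counts, at -0.21 (-0.50 to 0.08). Marker lists also differed between the 2 sources: trophoblast markers summed to 55.7 CPM in the single Dnmt1-/- and 371 in the single WT library, but to between 188 and 193 in Dnmt1-/- and between 83.0 and 83.1 in WT replicates. Fibroblast markers summed to 60.4 CPM in the single WT and 34.1 in the single Dnmt1-/- library, against at least 1065 in WT and 259 in Dnmt1-/- replicates. Hist1h2bc was at 6.09 CPM in the single WT library and at a signal of 39.7 or more in WT replicates.

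Levels of individual members were not alike in the 2 sources, which were deposited in different units, a normalised signal and raw counts. Per the processing notes, the dCas9-OGA and D242A libraries were aligned with another tool than the replicated ones. Of 26 members with a mean of at least 50 reads in the replicated libraries, 8 had at most 3 counts in every single library. They were Hist1h2ad, Hist1h2af, Hist1h2ah, Hist1h2an, Hist1h2ao, Hist1h2ap, Hist1h2bq and Hist1h2br, 6 of them H2A genes with an annotated antisense partner. Hist1h2ad, for example, had 200 to 348 reads in the replicated libraries and 0 to 3 counts in the single ones. Between 0% and 32.9% of their 50-base windows are unique, and for the other 18 members the range was 6.08% to 100%. H2A members made up 21.5% of member reads in the replicated libraries and 6.01% of member counts in the single ones. The choice was made after the values were seen, and which step set these levels was not tested.

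**Figure D5:**
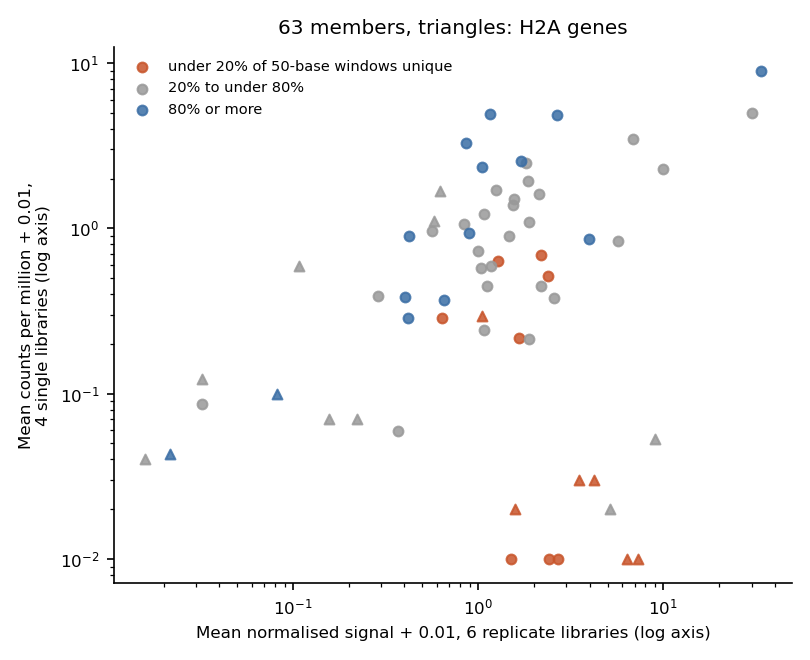
Mean CPM over the 4 single libraries against the mean normalised signal over the 6 replicated libraries, each + 0.01, for the 63 members (both axes log; colours: share of 50-base windows that are unique; triangles: H2A genes). A group of mostly H2A genes with few unique windows lies at the bottom right, near 0 in the single and well above 1 in the replicated libraries.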

How the data were processed

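RNA-seq of mouse ES cells was analysed from the deposited tables; ChIP-seq samples and repeat counts were not used here. Per the submitters' processing notes and the study's methods, the authors aligned reads to mm10 (HISAT2 2.1.0 for the replicated libraries, TopHat2 2.0.11 for dCas9-OGA and dCas9-OGA-D242A) and counted them on genes with featureCounts 1.5.0. The authors deposited a normalised signal for the 6 replicated libraries, close to CPM (counts per 1000000 reads), and raw counts for the single ones. All signal values (100%) were whole multiples, within 0.01 of a step, of what 1 read is worth, so reads were recovered; on these edgeR called 12252 genes.

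Dnmt1-/- and WT were compared with limma 3.58.1 (trend, 2-sided) on log2(signal + 0.5) after edgeR's filterByExpr (edgeR 4.0.16), over 17297 genes with Benjamini-Hochberg adjustment at 0.05. A fold change on this scale understates low genes. DESeq2 1.42.0, edgeR, other pseudocounts, scaling and filters, a replicate block and leaving out each library were alternatives. On simulated data for this comparison limma recovered 181 of 200 genes changed 2-fold among 17297, with 12 false calls, and 44 of the 63 changed genes under 100 reads. The real fit called 12324 genes, far more than the 200 changed in the simulation, so these rates need not hold for it. Single libraries were scaled by TMM, with log2 ratios of CPM + 0.5 among genes with at least 100 counts over both libraries and no test. Log2 ratios with counting intervals carry no pseudocount. Shares have 95% Wilson intervals, which cover counting error only, since PCR reads without molecular identifiers are not independent molecules.

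Positions are from GENCODE M21, where 61 members matched by identifier and 2 by symbol, sequences from the RefSeq copy of GRCm38, and promoter windows from RefSeq on GRCm38.p6. Named members are the 3 with the highest signal per kb in each class, the 5 largest called changes in each direction, the 5 largest ratios in each direction between dCas9-OGA and its inactive form, germ cell variants, and Hist3 and Hist4 members. From the other lists a fixed set and the 2 largest changes in each direction are named. The members and lists were chosen with earlier results of these data known. Figures were drawn with matplotlib 3.10.9.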

Additional observations from a re-analysis of the deposited data

How the results depend on the processing

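Lower calls among the members ranged from 18 (DESeq2) to 22 (pseudocount 5) over the full-sample alternatives, and from 18 to 26 when 1 library was left out. Higher calls stayed at 0, except for 1, Hist1h2bm, with no filter or without WT replicate 1, so from 0 to 1 over the left-out libraries. A set of 17 members was lower in every fit. The median of the members was -0.42 with edgeR and with DESeq2, -0.34 with a pseudocount of 0.1 and -0.074 with one of 5, and from -0.32 to -0.22 with a library left out. With members of at least 80% unique windows there were 3 lower calls among 12. Same-numbered WT and Dnmt1-/- libraries deviated together with r = 0.07, -0.02 and 0.07, and differently numbered ones with r from -0.08 to 0.009. These values do not settle whether the numbers pair the samples. With the replicate block 20 members were lower and 0 higher, with a median of -0.26.

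Among the genes named by rule, whose estimates were compared across fits, signs reversed when 1 library was left out for 7 that were not called on all libraries, with ranges of -0.0139 to 0.132 (H2afz), -0.0256 to 0.105 (Hist1h1b), -0.0923 to 0.202 (Hist1h1t), -0.105 to 0.111 (Hist1h2ad), -0.141 to 0.0101 (Hist1h2ap), -0.258 to 0.031 (Hist1h2ba) and -0.004 to 0.078 (Lsm10).

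In the single libraries, members at least 2-fold lower in dCas9-OGA than in its inactive form numbered 0 with a pseudocount of 5, 8 of 9 with none and 11 of 35 with at least 20 counts. Against WT, dCas9-OGA had 0 lower with a pseudocount of 5, 1 higher and 4 lower of 32 with at least 20 counts, and 0 lower among members with unique windows. The inactive form had 1 higher with a pseudocount of 5. Shares of reads fell without the 3 most abundant members to 0.0129% (WT replicates), 0.00928% (Dnmt1-/- replicates), 0.00439% (single WT), 0.00544% (single Dnmt1-/-), 0.00276% (dCas9-OGA) and 0.00642% (D242A). With unique members only they were 0.00588%, 0.00382%, 0.00242%, 0.00297%, 0.00198% and 0.0049%. Fewer members by construction give these lower shares; the causes of the other shifts were not tested.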
